A study of Bos taurus with 9 samples.

Results

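The region described here is a 4 Mb span of cattle chromosome 29, from 42 to 46 Mb on the assembly UMD3.1, with all peaks that 8 ChIP-seq libraries of MDBK cells gave in it. MDBK is an established line of bovine kidney epithelial cells. Chromatin was precipitated with antibodies to H3K9ac, H3K27ac, RNA polymerase II (Pol II) and H3K9me3, each in 1 library of control cells and 1 library of cells grown with 5 mM butyrate for 24 h. The labels call the control cells only "Control". The span was chosen by its rise in Pol II peaks after butyrate and by the longest Pol II peak of the butyrate list, which lies at chr29:44278687-44284186. The change of Pol II in the span is therefore given as a description, without a test. A peak belonged to the span when its midpoint fell inside it. This gave 1227 of the 673926 peaks of the 8 lists, while 7970 peaks lay on the rest of chromosome 29, which extended over 47.42 Mb.

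With 1 library per group there was no replicate check and no p-value. Intervals are 95% intervals of counting error, and since neighbouring peaks are not independent of one another, they are too narrow. The lists hold positions only, with no reads or heights, so the depth behind each peak is unknown. Control libraries were sequenced in lane 4 and butyrate libraries in lane 5, so lane and treatment cannot be told apart. All libraries were called against 1 shared input library, which was not analysed here.

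Butyrate is a short-chain fatty acid that inhibits histone deacetylases, the enzymes that remove acetyl groups from histone tails. Acetylation of histone H3 at lysine K9 or K27 (H3K9ac, H3K27ac) goes with active promoters and enhancers, methylation at K9 (H3K9me3) goes with repressed heterochromatin, and Pol II is the enzyme that transcribes protein-coding genes and many long non-coding RNA genes. Pol II usually gives narrow peaks at promoters, and long stretches of signal occur over strongly transcribed genes. The span corresponds to a gene-dense part of human chromosome 11 that holds, among others, the cyclin gene CCND1, the tumour suppressor gene MEN1 and the long non-coding RNA genes NEAT1 and MALAT1. No gene was assigned to a peak here, because no annotation of the assembly of the lists was at hand.

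Pol II peaks were more numerous in the span after butyrate than in control, and less numerous on the rest of the chromosome. The control list held 57 Pol II peaks in the span (interval 43.2 to 73.9) and the butyrate list held 109 (89.5 to 131), a log2 ratio of butyrate to control of 0.94. On the rest of chromosome 29 the number went from 668 to 387, a log2 ratio of -0.79. Peaks of the minimum length of 199 bp made up 35.1% of control Pol II peaks in the span and 39.5% on the rest. After butyrate they made up 20.2% and 22.2%. In control cells the span held 14.2 Pol II peaks per Mb against 14.1 on the rest of the chromosome, a relative density of 1.01. Against all other autosomes the control density was 0.636, and with peaks of at least 500 bp only, which were 4 in the span, it was 5.93 on chromosome 29. After butyrate it held 27.2 peaks per Mb against 8.16, a relative density of 3.34. Of 12 consecutive blocks of 4 Mb along the chromosome, the span ranked 7 by control Pol II peaks and 1 by butyrate Pol II peaks. Only 1 other block of the 12 had more Pol II peaks after butyrate than in control, from 23 to 25. The rise was not limited to the megabase of the longest peak, because outside the megabase from 44 to 45 Mb the number went from 35 to 70. These are the values on which the span was selected.

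Peaks of the acetyl marks were dense in the span in both conditions, and a larger rise after butyrate than elsewhere on the chromosome was not detectable. H3K27ac went from 219 peaks (191 to 250) to 398 (360 to 439), a log2 ratio of 0.86 (0.62 to 1.11) against 0.97 on the rest. The difference between span and rest was -0.11 with an exact interval of -0.37 to 0.16. H3K9ac went from 141 peaks (119 to 166) to 184 (158 to 213), a log2 ratio of 0.38 (0.06 to 0.71) against 0.67, and the difference of -0.28 had an interval of -0.63 to 0.07. The span thus ranked 7 of the 12 blocks by the rise of H3K27ac and 11 by the rise of H3K9ac, although it ranked 2 by the number of peaks of either mark in either condition. Relative to the rest of the chromosome, H3K27ac peaks were 2.31 times as dense in control (1.99 to 2.67) and 2.14 times after butyrate (1.92 to 2.39). For H3K9ac the relative density was 2.13 in control (1.76 to 2.55) and 1.75 after butyrate (1.49 to 2.04). Set against all other autosomes instead, these densities fell to 1.47, 1.34, 1.20 and 1.00 in the same order. The sign of both changes in peak number turned with the peaks kept, but the intervals then held 0. For this only the longest were kept, so that both lists of an antibody were the same size. The log2 ratio was -0.16 (-0.45 to 0.12) for H3K27ac and -0.33 (-0.70 to 0.04) for H3K9ac, while that of Pol II was 1.81. Covered bases of H3K27ac still had a log2 ratio of 0.39 (0.15 to 0.64) then. Those of H3K9ac went from 0.09 with the full lists to -0.34 (-0.66 to -0.01), an interval that did not hold 0. Intervals of covered bases take their margin from that of the peak number.

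The span did not differ detectably from the rest of the chromosome in the density of H3K9me3 peaks, but held fewer per Mb than the other autosomes. The control list held 20 H3K9me3 peaks (12.2 to 30.9) and the butyrate list 99 (80.5 to 121), a log2 ratio of 2.31 (1.60 to 3.08) against 2.23 on the rest of the chromosome. The difference was 0.08, with an interval of -0.65 to 0.88. Its relative density was 0.865 (0.52 to 1.36) in control and 0.915 (0.74 to 1.12) after butyrate, so both intervals held 1. Against all other autosomes it was 0.490 (0.30 to 0.76) and 0.702 (0.57 to 0.85), and with peaks less than 1 kb apart joined the butyrate value on chromosome 29 was 0.779 (0.61 to 0.98). With lists of equal size the log2 ratio of H3K9me3 in the span was 0.58 (-0.28 to 1.48), an interval that held 0.

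**Figure D1:**
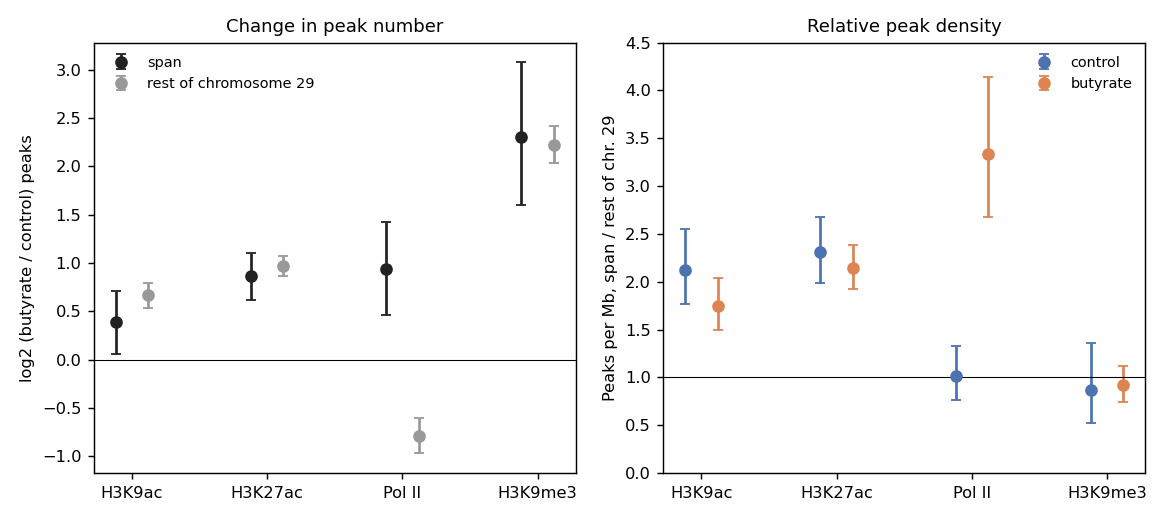
Left, log2 ratio of butyrate to control peak number for each antibody in the span (black) and on the rest of chromosome 29 (grey). Right, peaks per Mb of the span divided by peaks per Mb of the rest, in control (blue) and butyrate (orange). Bars are 95% intervals of counting error, 1 library per point. Pol II, which chose the span, is at 0.94 against -0.79 on the left, while for each of the other antibodies the interval of the difference between span and rest includes 0.

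Pol II covered 16.2 kb of the span in control and 43.6 kb after butyrate, 0.405% and 1.09% of it, and its log2 ratio of 1.43 exceeded that of the peak number because the peaks were longer. The peaks of at least 500 bp went from 4 to 16 and those of at least 1000 bp from 1 to 5. H3K27ac covered 89.9 kb in control and 168 kb after butyrate, with a median length of 319 bp in both. H3K9ac covered 55.8 kb and 59.3 kb, so that its larger number of peaks added few bases. Its median length was 314 bp (287 to 358) in control and 272 bp (247 to 298) after butyrate. H3K9me3 covered 4.75 kb and 27.8 kb, and its longest peak in the span, at chr29:42755700-42756634 in the butyrate list, measured 935 bp.

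The 5500 bp peak was the longest of the butyrate Pol II list, in which the next longest on a nuclear chromosome had 3369 bp. The other butyrate Pol II peaks of 1000 bp or more in the span lay together about 50 kb further on. They were chr29:44335944-44337130 with 1187 bp, chr29:44337473-44339280 with 1808 bp, chr29:44339881-44341114 with 1234 bp and chr29:44341895-44343982 with 2088 bp. The shortest of them had 1187 bp and the longest peak under the limit of 1000 bp had 986 bp, at chr29:44345073-44346058 in the same cluster. All nuclear chromosomes together held 76 butyrate Pol II peaks of at least 1000 bp and 4 control ones. The only control Pol II peak of that length in the span, chr29:44342191-44343401 with 1211 bp, lay wholly within the 2088 bp peak of the butyrate list. All 4 control Pol II peaks of at least 500 bp in the span lay wholly within the 5500, 2088 and 986 bp peaks, so Pol II had peaks at these sites in both conditions.

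**Figure D2:**
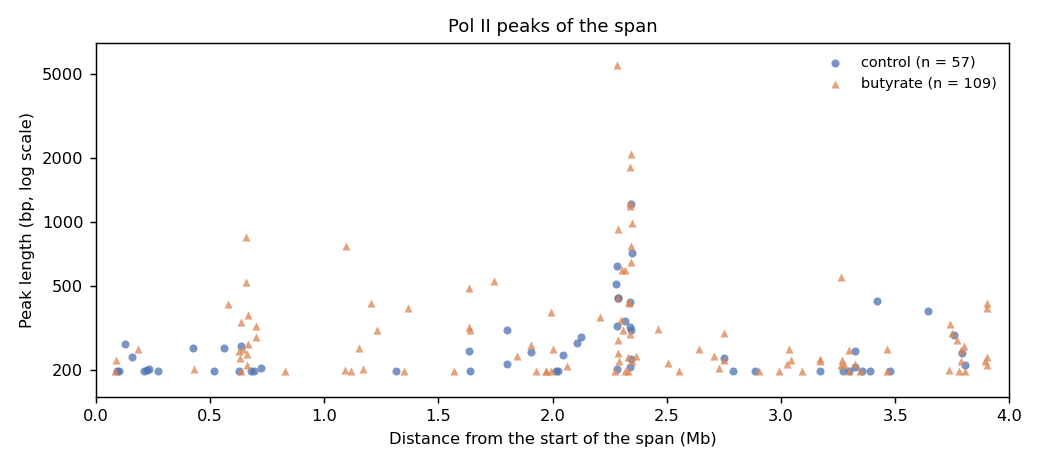
Length of each Pol II peak (bp, log axis) against its distance from the start of the span (Mb), for 57 control peaks (circles) and 109 butyrate peaks (triangles). The peaks of 1000 bp or more stand in 1 place near 2.3 Mb, and the longest has 5500 bp.

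When butyrate Pol II peaks less than 1 kb apart were joined, 27180 runs resulted on the nuclear chromosomes, and both of the longest lay in the span. The first run along the chromosome, chr29:44278687-44287954, was 9268 bp long and held 5 peaks that covered 7.39 kb. The second, chr29:44335222-44346571, was 11350 bp long, the longest of all, and held 10 peaks that covered 9.66 kb. They were 47.3 kb apart and together held 15 of the 109 butyrate Pol II peaks of the span and 39.1% of the bases that Pol II covered there. In control cells Pol II covered 2.53 kb of the first run in 6 peaks and 3.41 kb of the second in 7 peaks. Outside both runs Pol II covered 10.2 kb of the span in control and 26.5 kb after butyrate. These bases also belong to the Pol II rise by which the span was chosen, so they are a description only.

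Acetyl marks covered fewer bases of both runs after butyrate than in control, most clearly H3K9ac. In the first run H3K9ac covered 1405 bp in control and 199 bp after butyrate, and in the second 4613 bp and 571 bp. H3K27ac went from 2617 bp to 2118 bp in the first run and from 2980 bp to 2131 bp in the second. No H3K9me3 peak of either condition touched a run. Within the 5500 bp peak itself, 4 control H3K9ac peaks covered 934 bp and 5 control H3K27ac peaks covered 2617 bp. After butyrate H3K9ac had no peak there and H3K27ac had 1, which shared 275 bp with it. Each of the other 4 Pol II peaks over 1000 bp also overlapped control H3K9ac, over 730 to 1270 bp, whereas 1 of the 4 overlapped H3K9ac after butyrate, over 211 bp. The 10 longest Pol II runs of the genome include these 2. H3K9ac covered fewer bases after butyrate than in control in 10 of the 10, while H3K27ac covered fewer in 5 and more in 5. Fewer H3K9ac bases under long Pol II runs were therefore not particular to the span. The same count was not made for shorter runs or for sites without Pol II, so whether the fall goes with long runs was not tested.

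H3K9ac peaks were also fewer around the longest peak. Within 25 kb of it, though not farther on, H3K27ac peaks in control only lay before it or touched it. After butyrate they lay on both sides of it. Within 25 kb of the peak H3K9ac had 8 peaks in control and 1 after butyrate. Control H3K27ac had 8 peaks before the Pol II peak, by coordinate, 5 touching it and none after it. Butyrate H3K27ac had 5 before it, 1 touching it and 11 after it. Control Pol II had 4 peaks touching it and 2 after it, and butyrate Pol II had 1 before it and 8 after it beside the peak itself. Between the runs, over 47.3 kb, H3K9ac went from 13 peaks to 2, H3K27ac from 15 to 22 and Pol II from 1 to 9. The bases that H3K27ac covered there went the other way, from 8.59 kb to 7.93 kb. The strand of transcription is unknown, so before and after refer to coordinates only.

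**Figure D3:**
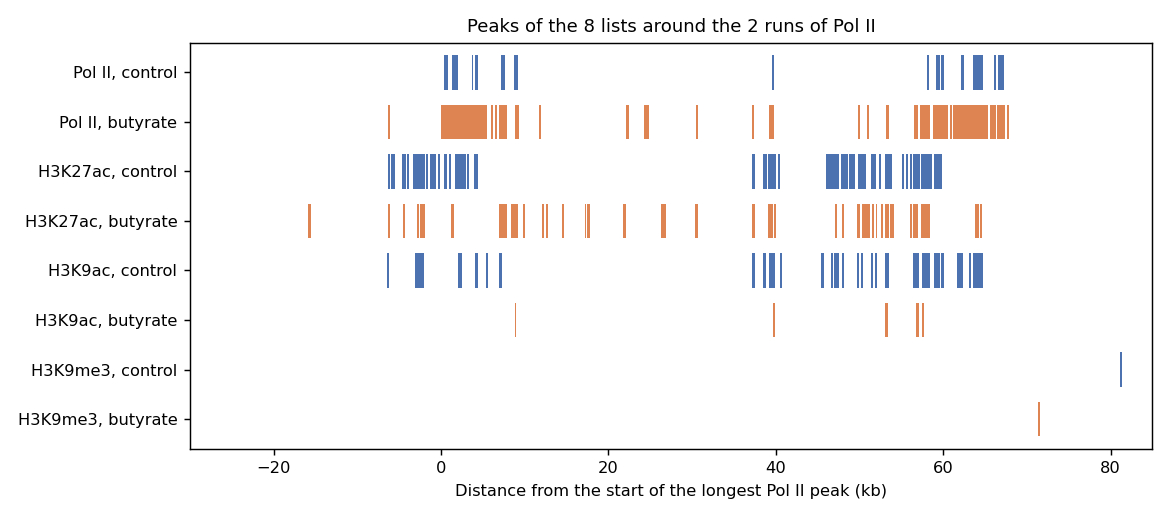
Peaks of the 8 lists by distance from the start of the longest Pol II peak (kb), control in blue and butyrate in orange, drawn to scale. The butyrate Pol II track holds the runs of 9268 bp and 11350 bp, beneath which control H3K9ac covers 1405 bp and 4613 bp and butyrate H3K9ac 199 bp and 571 bp.

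The change was next followed in 80 windows of 50 kb. A window was said to rise when bases under peaks after butyrate were at least 2 times those in control and at least 1000 bp more, and to fall in the opposite case. H3K27ac rose in 20 windows, 25% of the span (16.8 to 35.5), beside 11.3% of windows on the rest of chromosome 29 and 17.0% of windows on all nuclear chromosomes. It fell in 1 window, 1.25% (backgrounds 0.422% and 0.743%). H3K9ac rose in 6 windows, 7.5% (4.85% and 8.13%), and fell in 3, 3.75% (1.48% and 2.25%), shares near the background of all chromosomes. H3K9me3 rose in 8 windows, 10% (5.06% and 9.59%), again near the background of all chromosomes, and fell in 0 (0.0% and 0.0809%), for which the Wilson interval allows up to 4.58%. Pol II rose in 5 windows, 6.25% (0.949% and 1.68%), and fell in 0 (0.949% and 2.5%), from which nothing is read since Pol II chose the span. Windows with more peaks can pass the limit of 1000 bp more easily. The share of windows with any peak was higher in the span than on the rest of the chromosome for H3K27ac (66.2% against 25.8% in control), so part of the background is windows that were empty.

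**Figure D4:**
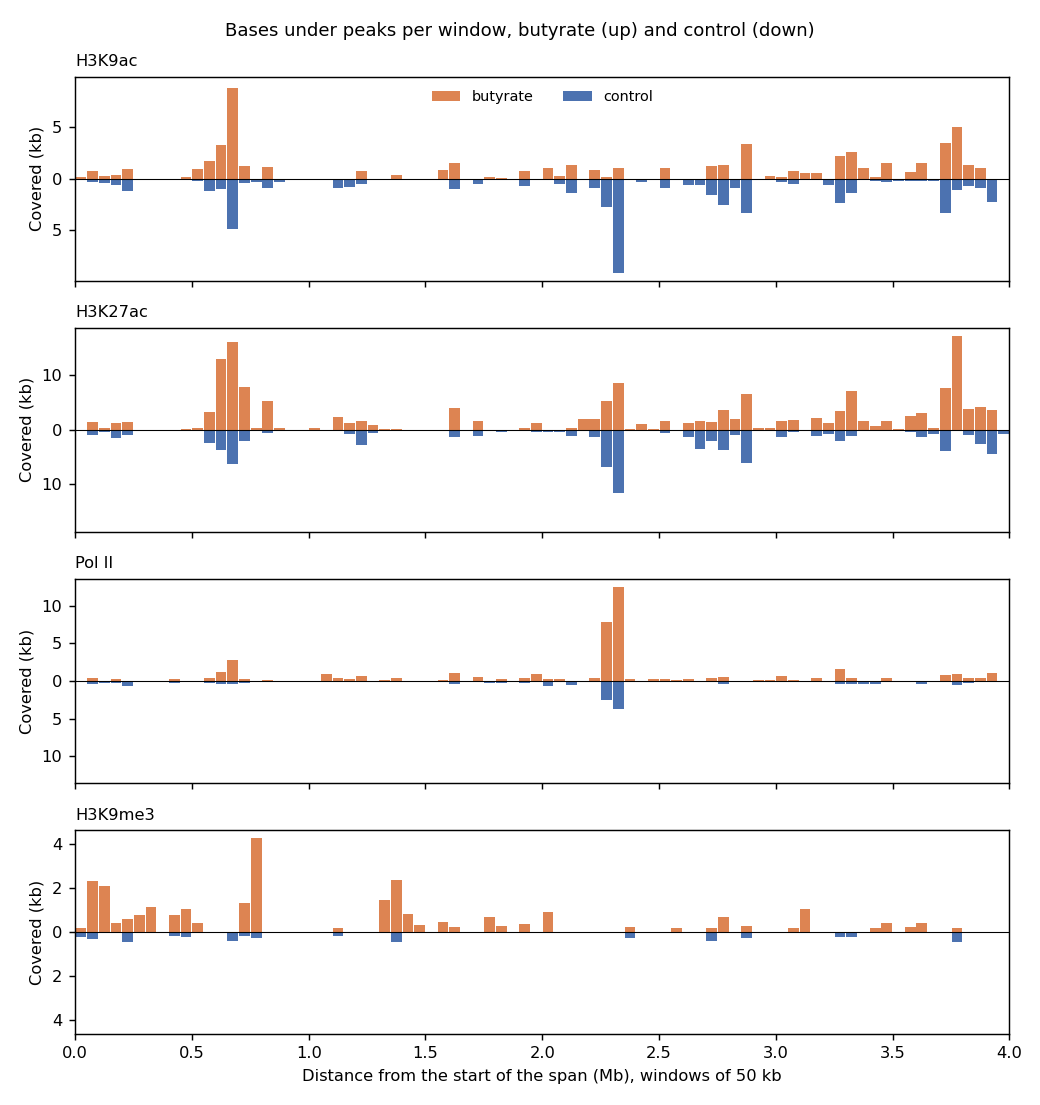
Bases under peaks (kb) in 80 windows of 50 kb along the span, butyrate upward and control downward, 1 panel per antibody with its own scale. Pol II stands out in 2 neighbouring windows near 2.3 Mb, with 7.82 kb and 12.5 kb after butyrate. In these windows H3K9ac has 2.74 kb and 9.15 kb in control and 0.199 kb and 1.07 kb after butyrate.

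The 2 windows with most butyrate Pol II were also the 2 in which H3K9ac fell most. In chr29:44300001-44350000 Pol II went from 8 peaks and 3.75 kb to 18 peaks and 12.5 kb, H3K9ac from 20 peaks and 9.15 kb to 4 peaks and 1.07 kb, and H3K27ac from 11.6 kb to 8.52 kb. In chr29:44250001-44300000 Pol II went from 6 peaks and 2.53 kb to 7 peaks and 7.82 kb, H3K9ac from 8 peaks and 2.74 kb to 1 peak and 0.199 kb, and H3K27ac from 6.73 kb to 5.31 kb. These windows held 46.7% of the butyrate Pol II bases of the span.

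In the next 3 windows by butyrate Pol II, acetyl marks had as many or more peaks after butyrate. In chr29:42650001-42700000 Pol II went from 2 peaks to 7 (0.398 kb to 2.75 kb), H3K27ac from 16 peaks to 28 (6.18 kb to 16.0 kb) and H3K9ac from 11 to 26 (4.85 kb to 8.87 kb). Its neighbour chr29:42600001-42650000 went from 2 Pol II peaks to 5 and from 3.62 kb to 13.1 kb of H3K27ac. In chr29:45250001-45300000 Pol II went from 2 peaks to 6, while H3K9ac had 7 peaks in both lists. The window after these, chr29:45900001-45950000, which was added after its values were seen, went from 0 to 3 Pol II peaks (1.12 kb), from 5 H3K9ac peaks (2.27 kb) to 0, and from 4.40 kb to 3.61 kb of H3K27ac. All 3 windows in which H3K9ac fell by the limits above were thus windows in which Pol II rose by them, while the other 2 windows in which Pol II rose did not lose H3K9ac by them. The same count is not given for windows elsewhere, and Pol II chose the span, so nothing is read from it. Pol II lost few peaks in any window, at most from 3 peaks to 0 in chr29:42200001-42250000 and from 2 to 0 in chr29:44100001-44150000.

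The largest rise of both acetyl marks was in chr29:45750001-45800000. There H3K27ac went from 1 peak and 0.276 kb to 37 peaks and 17.3 kb, the most peaks of any window and library in the span. H3K9ac in this window went from 4 peaks to 15, and Pol II from 2 peaks and 0.536 kb to 4 peaks and 0.946 kb. The longest H3K27ac peak of the span lay just before it, at chr29:45734184-45737001 in the butyrate list, with 2818 bp, of which 1720 bp were under control H3K27ac peaks. The second window in which H3K27ac fell most was chr29:44650001-44700000, from 10 peaks to 4.

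By megabase, H3K9ac had fewer peaks after butyrate in the third megabase of the span and more in the others. From 45 to 46 Mb H3K27ac went from 64 peaks to 155 and H3K9ac from 41 to 70. From 42 to 43 Mb H3K27ac went from 49 to 107 and H3K9ac from 30 to 64. From 44 to 45 Mb H3K9ac went from 59 peaks to 35, or from 25.3 kb to 12.1 kb. H3K27ac went from 84 peaks to 97 there, but from 40.7 kb to 38.5 kb. The pair of windows around the runs went from 28 H3K9ac peaks to 5, whereas the remainder of that megabase had 31 and 30. Outside that megabase H3K9ac went from 82 peaks to 149, a log2 ratio of 0.86.

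Most H3K9me3 peaks after butyrate lay in the first megabases of the span, before the runs. Their number went from 10 to 51 from 42 to 43 Mb, from 3 to 27 in the next megabase, from 3 to 10 in the third and from 4 to 11 in the fourth. The largest rise was in chr29:42750001-42800000, from 1 peak to 11 and from 0.273 kb to 4.28 kb, where H3K27ac had 1 peak in both lists and Pol II none. In chr29:42100001-42150000 H3K9me3 went from 0 peaks to 6. Of the 80 windows, the 7 with at least 5 butyrate H3K9me3 peaks held 48 of the 99 and 27 of the 398 butyrate H3K27ac peaks. The 13 with at least 10 butyrate H3K27ac peaks held 236 of the 398, 55 of the 109 butyrate Pol II peaks and 7 butyrate H3K9me3 peaks. The 2 sets share chr29:42700001-42750000, which held 20 of those 27 H3K27ac peaks and 5 of those 7 H3K9me3 peaks. The 2 windows with most butyrate Pol II held 25 of the 55 Pol II peaks. Of the 99 butyrate H3K9me3 peaks, 4 overlapped a butyrate H3K27ac peak by at least 1 bp, 4.04% (1.58 to 9.93), beside 3.35% on the rest of the chromosome. In control the count was 0 of 20 H3K9me3 peaks, for which the Wilson interval allows up to 16.1%, beside 8.39%.

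Control peaks of the acetyl marks were not detectably more or less often overlapped by a butyrate peak of the same mark in the span than elsewhere. For H3K9ac, 57 of 141 control peaks were overlapped, 40.4% (32.7 to 48.7), beside 49.0% on the rest, and for H3K27ac 128 of 219, 58.4% (51.8 to 64.8), beside 65.2%. The log2 odds ratios of span to rest were -0.50 (-1.05 to 0.05) and -0.41 (-0.85 to 0.03), so neither interval excluded 0. Without the megabase from 44 to 45 Mb the shares were 51.2% and 66.7%. Of the butyrate peaks, 66.8% for H3K9ac and 67.6% for H3K27ac had no control counterpart, beside 67.6% and 67.7% on the rest.

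For Pol II, 17 of 57 control peaks of the span met a butyrate Pol II peak, 29.8% (19.5 to 42.7), beside 30 of 668 on the rest, 4.49%. These shares are a description only, since Pol II chose the span. Of these 17 peaks, 14 lay from 44 to 45 Mb and 13 within the 2 runs. Without that megabase the share was 8.57%. Most butyrate Pol II peaks were at new positions, 96 of 109 in the span and 92.2% on the rest.

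The overlap of butyrate Pol II peaks with acetylation is given as a description, since these peaks chose the span. Of 109, 62 overlapped a butyrate H3K27ac peak, 56.9% (47.5 to 65.8), beside 55.3% on the rest. For butyrate H3K9ac the count was 29, 26.6% (19.2 to 35.6), beside 34.9%. Both marks were present at 28 of the peaks, H3K27ac alone at 34, H3K9ac alone at 1 and neither at 46, and 30 peaks met no peak of any other list. The 16 longest Pol II peaks, of 500 bp or more, met control H3K9ac in 11 cases, 68.8%. Of all 109, which include these 16, 36.7% did. The 16 met butyrate H3K9ac in 4, 25%, beside 26.9% of the shorter peaks, and H3K27ac in 8 in either condition. Longer peaks can meet another peak more easily, and these shares were not corrected for length. A different set of 11 of the 16 lay in the megabase of the longest peak. That megabase held more control H3K9ac peaks than any other of the span. Whether the share with control H3K9ac goes with length or with place was not tested.

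Control Pol II peaks took part in choosing the span too, and their overlap is given in the same way. With control H3K27ac the count was 12 of 57, 21.1% (12.5 to 33.3) beside 7.19%, and with control H3K9ac 13 of 57, 22.8% (13.8 to 35.2) beside 7.34%. Both shares were 8.57% without the megabase from 44 to 45 Mb, which holds the peak that chose the span.

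**Figure D5:**
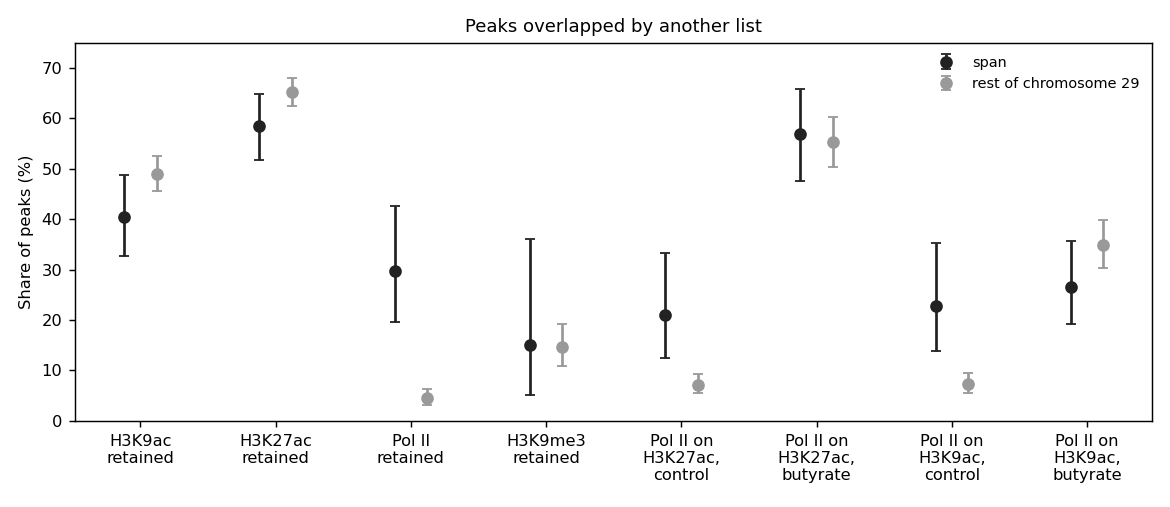
Share of peaks (%) overlapped by at least 1 bp, in the span (black) and on the rest of chromosome 29 (grey), with Wilson 95% intervals. The first 4 items are control peaks met by a butyrate peak of the same antibody, and the last 4 are Pol II peaks met by an acetyl mark of the same condition. Pol II, which chose the span, is retained at 29.8% in the span and 4.49% on the rest, given as a description.

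Joining overlapping peaks of all lists gave 693 regions in the span, of which 464 (67.0%) held peaks of 1 library, beside 71.6% on the rest of the chromosome. No region of the span held peaks of 7 or 8 libraries, and of 4956 regions on the rest 3 held 7 and 1 held 8. With 6 libraries there were 6 regions, 0.866%, beside 0.424% on the rest. These 6 regions were looked at after their values were seen, and 4 of them carried both acetyl marks and Pol II in both conditions. They lay at chr29:43637270-43638442, chr29:44317790-44318701, chr29:44335944-44337382 and chr29:44750046-44751970, and the third of these lies within the second run. The last holds the longest H3K9ac peak of the span in each condition, with 1483 bp in control and 1034 bp after butyrate. Butyrate Pol II covered 495 bp of the control H3K9ac peak.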

How the data were processed

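Per the labels and its methods, the study made the lists as follows. Reads of 75 nt were aligned with BWA to UMD3.1 (labels) or UMD3.1.1 (methods), and the authors called peaks in each library with MACS2 against the MDBK input. The labels also name Trim Galore 0.4.1. The deposited lists give chromosome, start and end only. Starts were read as counted from 0, which the sources do not state, and 1 was added to each. Lists follow no stated order.

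Counts had exact Poisson intervals, ratios and odds exact conditional intervals, shares Wilson intervals. Overlap required 1 bp. Python 3.11.15 with scipy 1.17.1 was used, and the overlap code was tested on simulated data. Named regions were the longest butyrate Pol II peak with its surroundings of 25 kb, butyrate Pol II peaks of at least 1000 bp, the longest peak of each library, the 5 windows richest in butyrate Pol II, and per antibody the 2 windows with the largest rise and fall. The Pol II runs were described in addition. Members and rules were chosen with earlier results of these data known. Alternatives were a minimum length of 500 bp, the longest peaks at equal list size, other overlaps, windows and folds, all other autosomes as comparison, and leaving out 44 to 45 Mb. Gene and sequence context were not analysed here, for want of that assembly.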

Additional observations from a re-analysis of the deposited data

How the results depend on the processing

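Of 137 recomputed values, 72 stayed within the limits set, 62 moved and 3 were counted as a change of direction. These 3 were peak numbers, and their intervals included 0. Covered bases of H3K9ac, counted as moved, changed sign too. Their log2 ratio went from 0.09 (-0.24 to 0.41) to -0.51 (-0.84 to -0.19) with peaks of at least 500 bp. At equal list size it was -0.34 (-0.66 to -0.01). Moved means outside the 95% interval given with the reported value (for covered bases, by more than the margin of the interval of the peak number), and for a share of windows changed by over 1.5 times. Where not shown by the alternative itself, the cause was not tested. No paired analysis was possible because a single library stood for each condition and antibody.

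With the longest peaks kept to equal list size, the log2 ratio of peak number was -0.33 (-0.70 to 0.04) for H3K9ac and -0.16 (-0.45 to 0.12) for H3K27ac. Pol II had 1.81 and H3K9me3 0.58 (-0.28 to 1.48). Covered bases then had log2 ratios of -0.34 (H3K9ac), 0.39 (H3K27ac), 1.99 (Pol II) and 1.41 (H3K9me3). Retained shares were 30.5% (H3K9ac), 42.0% (H3K27ac), 45.2% (Pol II) and 0% (H3K9me3), and gained shares 57.7% (H3K27ac) and 100% (H3K9me3).

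With peaks of at least 500 bp only, H3K9ac had -0.23 (-1.10 to 0.63) in number and -0.51 in covered bases, while Pol II had 2.00 and 2.68. Relative densities were 2.46 (butyrate H3K9ac), 5.93 (control Pol II), 10.5 (butyrate Pol II) and 2.22 (butyrate H3K9me3). Control Pol II peaks were retained at 100%. Gained shares were 47.8% (H3K9ac), 73.2% (H3K27ac) and 100% (H3K9me3). The limit applied to both lists of an overlap. Butyrate Pol II then lay on H3K27ac at 31.2% and on H3K9ac at 6.25%. With the full butyrate acetyl lists these Pol II peaks had 50% and 25%. Butyrate H3K9me3 lay on H3K27ac at 0%. Windows rose at 1.25% (H3K9ac), 16.2% (H3K27ac), 3.75% (Pol II) and 1.25% (H3K9me3), and 2.5% fell for H3K27ac.

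Without the megabase from 44 to 45 Mb the log2 ratios of number and of covered bases were 0.86 and 0.63 for H3K9ac, and 1.16 and 1.40 for H3K27ac. Control densities were 1.65 (H3K9ac) and 1.90 (H3K27ac). Retained shares were 51.2% (H3K9ac), 66.7% (H3K27ac) and 8.57% (Pol II), 95.7% of Pol II was gained, and control Pol II lay on either acetyl mark at 8.57%.

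With all other autosomes as the comparison, control relative densities were 1.20 (H3K9ac), 1.47 (H3K27ac), 0.636 (Pol II) and 0.490 (H3K9me3), and butyrate ones 1.00, 1.34, 2.20 and 0.702. With an overlap of 50%, retained shares were 28.4% (H3K9ac) and 49.8% (H3K27ac), and gained shares 76.6% (H3K27ac) and 95.4% (Pol II).

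With windows of 100 kb, 12.5% rose and 12.5% fell for H3K9ac, 17.5% rose for Pol II, 20% rose for H3K9me3 and 0% fell for H3K27ac. Windows shifted by 25 kb gave 3.80% that rose for H3K9ac, and a fold of 1.5 gave 2.5% that fell for H3K27ac.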

Other observations

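Peaks were unevenly spread within the span. Of its 80 windows, 6 held no peak in any list and 3 held peaks of all 8. The longest stretch without a peak, chr29:42882263-43008189, measured 126 kb. H3K9ac fell while H3K27ac rose, by covered bases and with no minimum change, in 14 windows, both rose in 25 and both fell in 12. By this measure H3K9ac was higher in 32 windows and lower in 26, and shares elsewhere are not given. Butyrate Pol II had peaks in 45 windows, of which 38 also had butyrate H3K27ac and 20 butyrate H3K9me3. Of all 80 windows, 59 (73.8%) had butyrate H3K27ac and 36 (45%) had butyrate H3K9me3.

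The lists were not in genome order, and their order is not explained in the sources used here. The 5500 bp Pol II peak stood in row 1 of 31240 of its list. Of the butyrate Pol II peaks of the span, 22.0% stood in the first 10% of the list, beside 9.04% of those on the rest of the chromosome, and for control Pol II the values were 14.0% and 3.74%.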
